A study of Mus musculus with 12 samples.

Results

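The 7 genes described here encode the enzymes that write, copy and oxidise cytosine methylation in mouse DNA, together with the factor that guides the copying enzyme: Dnmt1, Uhrf1, Dnmt3a, Dnmt3b, Tet1, Tet2 and Tet3. They were chosen by name, and all 7 were found among the 45792 genes of the deposited files. All 7 also passed the filter on low counts, which kept 15706 genes for testing. The RNA came from primary neural stem cells (NSCs), the self-renewing cells of the brain that give rise to neurons, astrocytes and oligodendrocytes, grown from the forebrains of newborn mice, WT C57BL/6J or Ncf1-/- back-crossed to that strain, in serum-free medium with EGF and FGF. Total RNA, depleted of ribosomal RNA, was sequenced from 3 groups of 4 libraries. WT NSCs (replicates 9 to 12) and Ncf1-/- NSCs (replicates 1 to 4) received no protein, and Ncf1-/- NSCs (replicates 5 to 8) received recombinant mouse Igfbp2 at 100 ng/ml, 48 h after plating and 48 h before RNA was prepared. Ncf1 encodes the organiser subunit of the Nox2 NADPH oxidase, which makes superoxide, and Igfbp2 is a secreted protein that binds insulin-like growth factors. The study states that each library is the culture of 1 pup, that the untreated Ncf1-/- cultures received vehicle, and that each pup with Igfbp2-treated cells also gave a vehicle culture. Its methods give a lower Igfbp2 dose than the sample labels. In whole cultures such as these, fewer cells of a type and less RNA per cell cannot be told apart.

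Methyl groups sit mostly on cytosines followed by guanine (CpG), on both strands of the DNA. After replication only the parental strand carries them: Uhrf1 recognises these hemimethylated sites and recruits Dnmt1, which methylates the new strand. Dnmt3a and Dnmt3b set new methylation where there was none, and Tet1, Tet2 and Tet3 oxidise methylcytosine to hydroxymethylcytosine and further, from where it can be lost through DNA repair or through replication. In the brain, Dnmt3a and the Tet enzymes are known for their part in the differentiation of NSCs and for the high non-CpG methylation and hydroxymethylcytosine of neurons, and Dnmt1 and Uhrf1 for their high expression in dividing progenitors.

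Features of the libraries that touch every comparison are given first. Library totals ran from 18201622 to 34086554 expected counts. Ncf1 itself had 1 to 7 counts in each of the 12 libraries, WT included, so its level does not check the genotype labels. The summed level of 4 Y-linked genes (Uty, Kdm5d, Eif2s3y and Ddx3y) was 105 to 116 CPM (counts scaled to a common total, with library sizes adjusted by TMM factors) in the vehicle libraries but 7.79 to 9.18 CPM in the Igfbp2-treated libraries. In WT it was 107 to 118 CPM in replicates 9 to 11 and 6.46 CPM in replicate 12. Xist, the RNA that coats the inactive X chromosome of female cells, was at 72.3 to 87.8 CPM with vehicle, 166 to 275 CPM with Igfbp2, 3.87 to 5.22 CPM in WT replicates 9 to 11 and 291 CPM in WT replicate 12. The effect of Igfbp2 and the difference in sex-linked expression therefore cannot be told apart in these libraries, and the Y-linked levels go against the statement that treated and vehicle cultures came from the same pups. Every vehicle library held Y-linked RNA near the level of WT replicates 9 to 11 together with Xist far above theirs. Whether each of these libraries holds the cells of 1 pup, as the study states, was not tested. GEO's labels give WT replicate 12 as untreated, whereas 1 of the sample sheets distributed with the study's code lists it as treated with apocynin, an inhibitor of NADPH oxidases. It was kept in the group of its label here, and results that move without it are given both ways.

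Markers of differentiated cells also moved with genotype. The summed level of 8 oligodendrocyte markers was 2093 to 9944 CPM in WT and 670 to 749 CPM in vehicle-treated Ncf1-/- libraries, and 7 of the 8 were lower in Ncf1-/- NSCs, Mag and Mbp by the most. The 5 astrocyte markers summed to 5496 to 10264 CPM in WT and 1823 to 2337 CPM with vehicle, and the 6 neuron markers to 595 to 764 CPM and 482 to 546 CPM. The 8 NSC markers summed to 7642 to 8231 CPM with vehicle, but to 2456 to 3741 CPM in WT replicates 9, 10 and 12 and 7970 CPM in WT replicate 11. They did not move as 1 block, since Nes and Fabp7 were higher in Ncf1-/- NSCs and Sox2, Hes5, Pax6, Prom1 and Msi1 lower. Of 6 microglial markers only 1 passed the filter, and C1qa was at 0 in all 12 libraries. The part of these cells in the differences of the enzymes was not tested.

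To rank the genes against each other, levels per transcript length were used (TPM, reads per transcript length scaled to a common total, as the authors deposited them). In WT NSCs, Dnmt3a stood first at 40.5 ± 4.76 TPM (SD, n = 4), above Tet3 at 18.1 ± 1.62 TPM and Dnmt1 at 16.8 ± 2.30 TPM, whose ranges overlapped. Tet1 at 9.37 ± 2.04 TPM, Uhrf1 at 7.67 ± 2.02 TPM and Tet2 at 7.32 ± 1.44 TPM followed, again with overlapping ranges, and Dnmt3b was far below at 0.385 ± 0.0580 TPM. In vehicle-treated Ncf1-/- NSCs the order was another one. Uhrf1 stood first at 35.5 ± 8.28 TPM and Dnmt1 next at 24.3 ± 7.08 TPM, with overlapping ranges, and Dnmt3a followed at 17.1 ± 2.42 TPM. Tet3 (8.64 ± 1.88 TPM), Tet2 (6.13 ± 0.645 TPM) and Tet1 (4.11 ± 1.41 TPM) lay below, and Dnmt3b was last again at 0.755 ± 0.0835 TPM. Igfbp2-treated Ncf1-/- NSCs kept Uhrf1 (24.4 ± 7.61 TPM), Dnmt1 (20.4 ± 7.68 TPM) and Dnmt3a (19.11 ± 4.78 TPM) at the top, with all 3 ranges overlapping, and here Tet2 at 3.32 ± 0.583 TPM had the lowest mean of the 3 Tet genes.

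**Figure D1:**
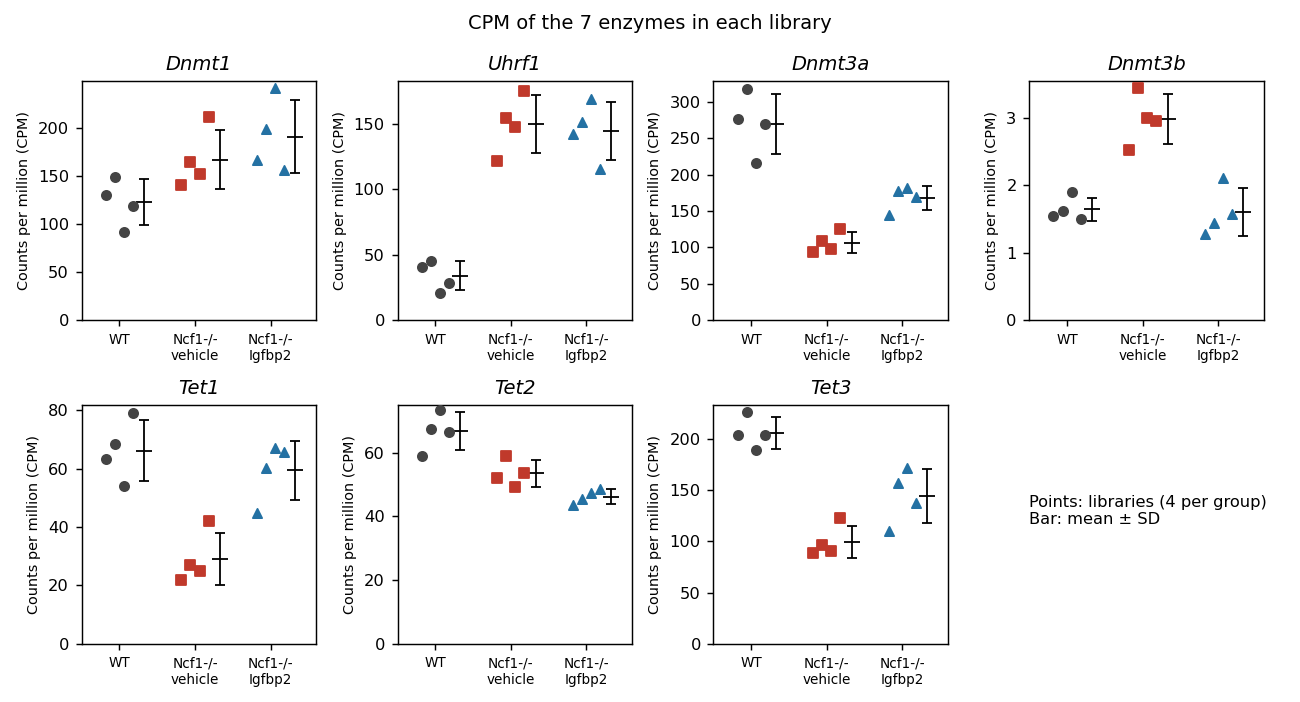
Level of each of the 7 enzymes (CPM, y axes from 0) in every library of the 3 groups, with the mean ± SD (n = 4) beside the points. Uhrf1 is at 20.9 to 44.9 CPM in WT and at 115 to 175 CPM in the 8 Ncf1-/- libraries. The means of Dnmt3a and Tet3 are highest in WT, lowest with vehicle and between them with Igfbp2, though the Tet3 libraries with vehicle and with Igfbp2 overlap.

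The first comparison, Ncf1-/- against WT, asks how the loss of Ncf1 changes these genes. All 7 passed edgeR's quasi-likelihood test with Benjamini-Hochberg adjustment over the 15706 genes at 0.05, where 57.2% of all tested genes passed. Uhrf1, Dnmt3b and Dnmt1 rose, as did 28.9% of tested genes, and Dnmt3a, Tet1, Tet3 and Tet2 fell, as did 28.2%. The 4 libraries of each group did not overlap for 6 of the 7 genes, against 51.2% of all tested genes, and overlapped for Dnmt1. With so many genes past the threshold, the share of the 7 that passed says little by itself, and the sizes and directions are given gene by gene.

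Uhrf1 (ENSMUSG00000001228, chromosome 17, 56303321 to 56323486, plus strand of GRCm38), the hemimethyl-CpG reader, showed the largest difference of the 7. It was at 40.8, 44.9, 20.9 and 28.7 CPM in WT replicates 9 to 12, and at 121, 154, 147 and 175 CPM in vehicle replicates 1 to 4. Every vehicle library was far above the highest WT library. The log2 fold change was 2.15 ± 0.21 (SE), a 4.43-fold higher level, with an adjusted p of 3.01e-06 by edgeR. It was 2.04 without WT replicate 12. The 2 WT libraries with less Uhrf1, replicates 11 and 12, were also those with less summed expression of 14 S phase genes (444 and 485 CPM, against 718 and 720 CPM in replicates 9 and 10).

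Dnmt1 (ENSMUSG00000004099, chromosome 9, 20907209 to 20959888, minus strand), the maintenance methyltransferase itself, moved far less. It was at 130, 149, 91.7 and 119 CPM in WT and at 141, 164, 152 and 211 CPM with vehicle. Vehicle replicate 1 lay below WT replicate 10, so the groups overlapped. The log2 fold change was 0.45 ± 0.17, with an adjusted p of 0.0412 by edgeR, and this call was not firm. It was lost when any of 8 libraries was left out (vehicle replicates 2, 3 and 4, Igfbp2 replicates 5 and 6, WT replicates 9, 11 and 12), down to 0.28 with an adjusted p of 0.189 without vehicle replicate 4, and 0.40 with an adjusted p of 0.115 without WT replicate 12. It was also lost with the Y-linked covariate (adjusted p = 0.0766, edgeR), by limma on log2(TPM + 1) (0.116), on log2(TPM + 0.1) (0.116) and on rescaled TPM (0.13), and by the study's test (0.581).

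The ratio of the partners does not depend on how libraries are scaled. Uhrf1 TPM per Dnmt1 TPM was 0.515, 0.513, 0.374 and 0.404 in WT and 1.44, 1.53, 1.60 and 1.34 with vehicle, so that Uhrf1 went from below Dnmt1 to above it in every library. Set against the summed TPM of Mcm2 to Mcm7, the 6 subunits of the replicative helicase, Uhrf1 went from 11.8% ± 1.82 in WT to 19.2% ± 0.771 with vehicle. Dnmt1 went the other way, from 26.3% ± 2.61 to 13.1% ± 1.17, and neither pair of groups overlapped.

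**Figure D2:**
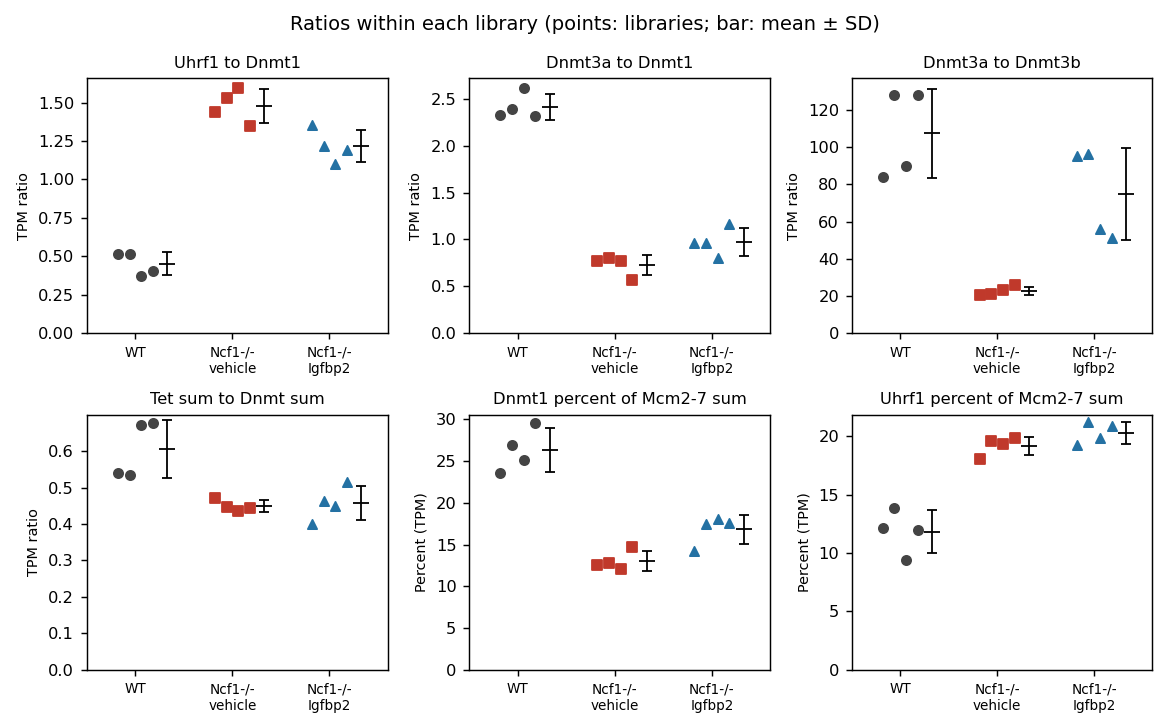
Ratios between genes within each library, from TPM, in the 3 groups (points are libraries, bars the mean ± SD, n = 4, y axes from 0). Uhrf1 per Dnmt1 is below 0.52 in the 4 WT libraries and above 1.09 in the 8 Ncf1-/- libraries, and the Dnmt3a to Dnmt3b ratio with vehicle, 20.7 to 25.6, lies below the other groups.

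Listed partners of maintenance methylation had a median rise between those of Dnmt1 and Uhrf1. Of 9 listed and tested, 6 rose and 1 fell, with a median log2 fold change of 1.46, beside 0.02 over all genes tested. Pclaf, a PCNA-binding protein that Dnmt1 also engages, rose by 2.25 ± 0.27 on the log2 scale. Hells, the chromatin remodeler needed for methylation of repeats, rose by 1.88 ± 0.25, its partner's relative Cdca7l by 1.79 ± 0.16 and the replicative ligase Lig1, which binds Uhrf1, by 1.63 ± 0.18 (adjusted p at most 3.56e-05, edgeR). Zbtb24, a regulator of Cdca7, was the 1 that fell, by -0.29 ± 0.10, and Usp7 (-0.13 ± 0.10) and Uhrf2 (0.15 ± 0.08) did not pass. All 14 S phase genes rose, with a median of 1.56, led by Rrm2 (2.48 ± 0.22) and Ccna2 (2.43 ± 0.23). Over the 12 libraries, the 3 genes whose log2 CPM followed Uhrf1 most closely were Rrm2 (Pearson r = 0.997), Nup133 (0.996) and Dtl (0.996), among 11171 genes, and for Dnmt1 they were Nup205 (0.972), Ncapd3 (0.958) and Nab1 (0.955). These correlations are a description over 12 libraries of 3 groups that share their genotype and treatment.

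The RefSeq promoters of the 2 maintenance genes and of Dnmt3a and Tet3, which moved the other way together, are shown as the 250 bases before each gene start (GRCm38.p6, 5′ to 3′ on the strand of the gene), with every CpG, the substrate of these enzymes, in capitals. Where RefSeq gives several starts for a gene, the start with the most CpG is shown.
Uhrf1, plus strand, chr17:56304063-56304312, inside the gene and in no GENCODE exon: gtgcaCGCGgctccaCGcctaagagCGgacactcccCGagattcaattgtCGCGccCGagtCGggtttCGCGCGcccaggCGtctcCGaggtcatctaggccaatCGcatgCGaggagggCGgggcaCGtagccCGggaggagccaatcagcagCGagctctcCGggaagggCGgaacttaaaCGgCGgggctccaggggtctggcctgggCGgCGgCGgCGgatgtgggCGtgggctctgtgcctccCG
Dnmt1, minus strand, chr9:20952624-20952873, of which 166 bases lie in GENCODE exons of the gene: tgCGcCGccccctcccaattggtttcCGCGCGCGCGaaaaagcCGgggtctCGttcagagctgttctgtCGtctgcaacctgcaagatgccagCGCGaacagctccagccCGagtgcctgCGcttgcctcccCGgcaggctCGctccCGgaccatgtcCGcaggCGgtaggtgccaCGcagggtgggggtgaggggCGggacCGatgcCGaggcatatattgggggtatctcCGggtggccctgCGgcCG
Dnmt3a, plus strand, chr12:3806910-3807159, of which 91 bases lie in exons of the gene: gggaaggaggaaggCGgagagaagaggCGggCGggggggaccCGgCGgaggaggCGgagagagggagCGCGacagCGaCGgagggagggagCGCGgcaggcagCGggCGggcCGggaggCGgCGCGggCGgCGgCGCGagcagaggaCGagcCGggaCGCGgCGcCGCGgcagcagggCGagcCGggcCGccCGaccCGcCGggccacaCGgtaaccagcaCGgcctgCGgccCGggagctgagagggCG
Tet3, minus strand, chr6:83441679-83441928, inside the gene and in no exon: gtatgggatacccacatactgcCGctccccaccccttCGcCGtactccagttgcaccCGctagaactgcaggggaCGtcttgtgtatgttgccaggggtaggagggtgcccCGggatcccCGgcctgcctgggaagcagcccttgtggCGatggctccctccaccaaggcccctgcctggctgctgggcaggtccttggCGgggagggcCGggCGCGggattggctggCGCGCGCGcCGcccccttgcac
These windows hold 30 CpG for Uhrf1, 26 for Dnmt1, 40 for Dnmt3a and 17 for Tet3, where the median of the 32851 promoters in the table is 6. The Uhrf1 window exceeds 94.1% of all promoters in its CpG count, the Dnmt1 window 90.4%, the Dnmt3a window 98.7% and the Tet3 window 76.5%. These ranks are raised by the choice of the start with the most CpG. The other Dnmt1 starts have 2 and 7 CpG (18.8% and 53.7%) and the other Uhrf1 start 10 (62.2%). Those of Dnmt3a have 38 and 15 (98.1% and 72.7%), and Tet3 has a single start. The E2F site was searched on both strands in 4 spellings, TTTCCCGC, TTTCGCGC, TTTGCCGC and TTTGGCGC, and 1.86% of all promoters hold at least 1 of them. The Uhrf1 window holds TTTCGCGC at 185 to 178 bases before the start, on the strand of the gene. The Dnmt1 window holds the same letters on the opposite strand, at 219 to 212 bases before the start. No match was found in the other 10 RefSeq promoter windows of the 7 genes, a statement about these letters in these windows only. The Tet2 window has 51 CpG, more than 99.9% of all promoters.

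Dnmt3a (ENSMUSG00000020661, chromosome 12, 3806007 to 3914443, plus strand), the main de novo methyltransferase of the postnatal brain, fell in Ncf1-/- NSCs. It was at 276, 318, 216 and 270 CPM in WT and at 94.3, 109, 97.9 and 126 CPM with vehicle, with a wide gap between the groups. The log2 fold change was -1.34 ± 0.13, a 2.53-fold lower level, and stayed between -1.47 and -1.15 over the alternatives tried. Dnmt3b (ENSMUSG00000027478, chromosome 2, 153649450 to 153687730, plus strand), its relative best known from the early embryo, moved the opposite way, at a low level. It was at 1.55, 1.62, 1.89 and 1.503 CPM in WT (27 to 66 counts) and at 2.53, 3.43, 3.002 and 2.95 CPM with vehicle (58 to 79 counts). The groups did not overlap, and the log2 fold change was 0.85 ± 0.18 with an adjusted p of 0.00153 by edgeR.

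The ratio of Dnmt3a TPM to Dnmt3b TPM was 84.0, 128, 89.8 and 128 in WT and 20.7, 21.2, 22.9 and 25.6 with vehicle. It rests on the transcript lengths estimated for Dnmt3b, which ran from 2381 to 3870 bases in WT at these low counts. Dnmt3a remained the larger of the pair in every library. A further ratio, added after the values were seen, set Dnmt3a against Dnmt1: it was 2.41 ± 0.141 in WT and 0.725 ± 0.107 with vehicle, so that the more abundant DNA methyltransferase transcript was Dnmt3a in all 4 WT libraries and Dnmt1 in all 4 vehicle libraries. Of the 9 listed partners of de novo methylation, 7 were tested: 5 fell and 1 rose, with a median of -0.45. Those that fell make or bind the histone marks that recruit or accompany de novo methylation: Setd2, which trimethylates H3K36 (-0.70 ± 0.12), Nsd1, which dimethylates H3K36 (-0.55 ± 0.14), Ehmt2 (-0.46 ± 0.07) and Ehmt1 (-0.45 ± 0.08), which methylate H3K9, and, of the same H3K9 kind, Setdb1 (-0.25 ± 0.08). Zfp57, a zinc-finger protein that protects imprinted methylation, rose by 0.77 ± 0.16. Dnmt3l and Dnmt3c, the germline members of the family, did not pass the filter, with at most 11.04 counts in any library.

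All 3 Tet genes fell in Ncf1-/- NSCs, by different amounts. Tet3 (ENSMUSG00000034832, chromosome 6, 83362373 to 83459084, minus strand) was at 203, 226, 189 and 204 CPM in WT and at 88.6, 96.1, 90.8 and 123 CPM with vehicle. Tet1 (ENSMUSG00000047146, chromosome 10, 62804570 to 62908996, minus strand) was at 63.3, 68.4, 54.0 and 78.9 CPM in WT and at 21.9, 27.1, 24.9 and 42.1 CPM with vehicle. The lowest WT library was above the highest vehicle library for both genes. The log2 fold changes were -1.05 ± 0.14 for Tet3 (2.07-fold lower, adjusted p = 2.96e-05, edgeR) and -1.19 ± 0.20 for Tet1 (2.28-fold lower, adjusted p = 0.000183, edgeR). Tet2 (ENSMUSG00000040943, chromosome 3, 133463679 to 133545139, minus strand), the member without a CXXC domain of its own, was at 59.0, 67.6, 73.6 and 66.6 CPM in WT and at 52.0, 59.0, 49.3 and 53.6 CPM with vehicle. WT replicate 9 at 59.04 CPM and vehicle replicate 2 at 59.02 CPM were next to each other without crossing. Its log2 fold change was -0.32 ± 0.08 (adjusted p = 0.0050, edgeR), and the call was lost in 4 alternatives: with library totals in place of the TMM factors (-0.14, adjusted p = 0.246), by limma on log2(TPM + 1) (0.304) and log2(TPM + 0.1) (0.322), and by the study's test on TPM (0.566).

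Within the summed TPM of the 3 Tet genes, Tet2 made up 19.16%, 19.11%, 25.1% and 20.6% in WT and 35.8%, 33.9%, 33.6% and 28.4% with vehicle, with no overlap. Tet3 made up 52.2% ± 2.34 in WT and 45.7% ± 1.81 with vehicle, and Tet1 26.8% ± 3.61 and 21.3% ± 3.21, where the groups overlapped for Tet1. The sum of the Tet genes per sum of the Dnmt genes was 0.606 ± 0.0789 in WT and 0.450 ± 0.0152 with vehicle, again without overlap.

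**Figure D3:**
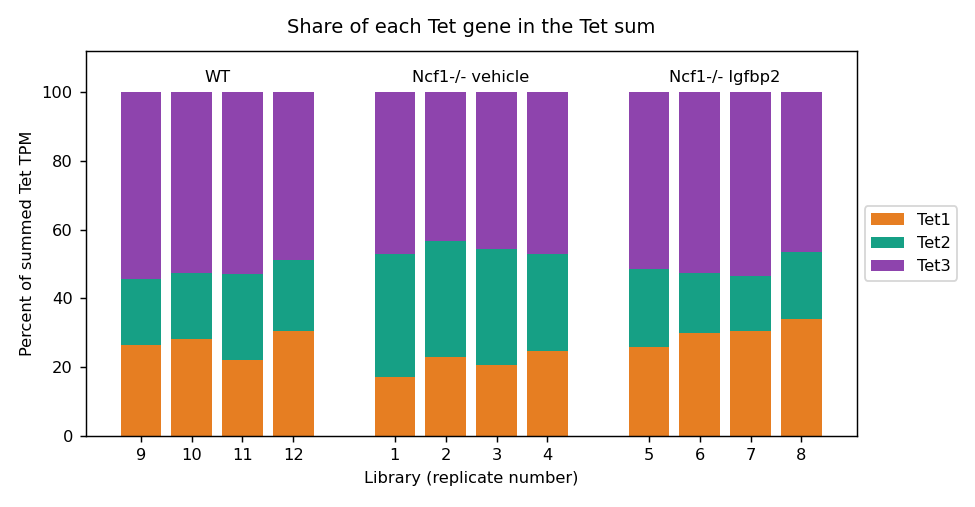
Share of Tet1, Tet2 and Tet3 in the summed TPM of the 3 genes (y axis, percent) for each library, numbered by replicate, in the 3 groups. Tet2 takes 28.4% to 35.8% in the vehicle libraries and 16.002% to 25.1% in the other 8.

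Over the 12 libraries, Tet3 followed Dnmt3a (Pearson r = 0.977 of log2 CPM) and Tet1 (0.902), and Tet2 ran against Uhrf1 (-0.849). The closest genes to Tet3 were Arid1a (0.994), Dync1h1 (0.993) and Ncoa6 (0.993), and those to Dnmt3a were Arid1b (0.991), Dennd5a (0.990) and Abca2 (0.988). Tet1 was closest to Sel1l (0.987), Tnks (0.987) and Atp2a2 (0.985), Tet2 to Jmjd4 (0.961), Ddx17 (0.951) and Nfrkb (0.950), and Dnmt3b to Snhg4 (0.943), Ccnl1 (0.928) and Gm16586 (0.926). The same 12 libraries underlie each of these values.

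The other genes of oxidation and removal did not share 1 direction. Of 17 listed, 15 were tested, and 7 rose and 3 fell in Ncf1-/- NSCs. Idh2, which makes the 2-oxoglutarate that Tet enzymes use, rose by 1.05 ± 0.15, and the DNA glycosylases Neil1 (0.88 ± 0.21), Mbd4, Tdg and Smug1 and the cytidine deaminases Apobec1 (1.91 ± 0.28) and Apobec3 rose as well. Cxxc4 and Cxxc5, proteins with the CXXC domain that relate to Tet2 binding and turnover, fell by -1.57 ± 0.23 and -1.56 ± 0.17, and Gadd45a fell by -0.62 ± 0.19. Among 9 readers of methylated CpG, 4 fell and none rose by this test, among them Zbtb4 (-0.79 ± 0.16), Mbd5 (-0.71 ± 0.11) and Mbd6 (-0.64 ± 0.08). DESeq2 called 5 of the readers.

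The methyl donor cycle, which supplies S-adenosylmethionine and clears its product, moved mostly upward. Of 14 listed genes 10 were tested, and 7 rose and 1 fell, with a median of 0.64. Shmt1 (1.80 ± 0.14) and Shmt2 (1.16 ± 0.09), which feed one-carbon units from serine, and Ahcy (1.04 ± 0.09), which hydrolyses the inhibitor S-adenosylhomocysteine, rose most, followed by Cbs (0.96 ± 0.24). Mat2a, the S-adenosylmethionine synthetase of most tissues, did not pass (-0.20 ± 0.17). Of 20 germline genes known to be silenced by promoter methylation, 17 did not pass the filter, with at most 3.17 counts in any library. Of the other 3, Tex15 rose (1.76 ± 0.24, from 0.649 ± 0.0418 to 2.20 ± 0.708 CPM), Brdt fell (-0.81 ± 0.27) and Ddx4 did not pass (-0.40 ± 0.41).

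The second comparison, Igfbp2 against vehicle in Ncf1-/- NSCs, asks which of the changed genes respond to the added protein. Of the 7 genes 4 passed, where 25% of all tested genes passed: Dnmt3a, Tet1 and Tet3 rose, as did 14.2% of tested genes, and Dnmt3b fell, as did 10.7%. The groups did not overlap for 4 of the 7 (Dnmt3a, Dnmt3b, Tet1 and Tet2), against 34.1% of all tested genes. As the treated libraries also differ from vehicle in Y-linked and Xist levels, these calls hold for the libraries as grouped. With the mean Y-linked level as a covariate, 0 of the 7 passed edgeR's test, with 2 at an unadjusted p under 0.05 and a smallest adjusted p of 0.377, and 5 of the 15706 genes passed. The Y-linked level separates all treated from all vehicle libraries, and within a group it differs widely only through WT replicate 12. This fit therefore can hardly tell treatment from Y-linked level, and its loss of calls decides nothing about either. The vehicle libraries are those of the first comparison, so that the pair is not independent.

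Dnmt3a was at 144, 177, 182 and 170 CPM in Igfbp2 replicates 5 to 8, all above the highest vehicle library at 126 CPM and all below the lowest WT library at 216 CPM. The log2 fold change was 0.66 ± 0.13 (1.58-fold, adjusted p = 0.00391, edgeR). Tet1 was at 44.9, 60.2, 67.0 and 65.6 CPM, above all vehicle libraries, of which replicate 4 at 42.1 CPM came nearest. Its log2 fold change was 1.03 ± 0.20 (2.05-fold, adjusted p = 0.00347, edgeR). Tet3 was at 111, 157, 172 and 137 CPM, and Igfbp2 replicate 5 lay below vehicle replicate 4 at 123 CPM. Its log2 fold change was 0.53 ± 0.14 (adjusted p = 0.0153, edgeR), and the call was lost without vehicle replicate 1 (adjusted p = 0.0516), vehicle replicate 3 (0.0709), Igfbp2 replicate 6 (0.0696) or Igfbp2 replicate 7 (0.074).

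The calls of these 3 rises depend on how the libraries are scaled, while their direction does not in the scalings tried. The 5 structural RNAs Rn7s1, Rn7s2, Rn7sk, Rpph1 and Rmrp, which are abundant non-coding RNAs, took 56.0% to 60.3% of all TPM with vehicle and 62.1% to 72.3% with Igfbp2. On log2(TPM + 1) the median of all genes moved by -0.30 and with library totals by -0.23, beside 0.04 with TMM factors. On log2(TPM + 1) with limma, the differences were 0.13 for Dnmt3a (adjusted p = 0.538), 0.34 for Tet1 (0.265) and 0.06 for Tet3 (0.82), all short of the threshold. With library totals Dnmt3a (0.39, adjusted p = 0.0378, edgeR) and Tet1 (0.76, 0.011) still passed and Tet3 (0.27, 0.183) did not. On TPM rescaled without the 100 most abundant genes, Dnmt3a (adjusted p = 0.0148, limma) and Tet1 (0.0423) also passed and Tet3 (0.061) did not. Relative to the median of all genes on log2(TPM + 1) the differences were 0.43, 0.63 and 0.36, and with TMM factors 0.62, 0.995 and 0.50. The all-gene split was 2238 higher and 1685 lower with TMM factors, 648 and 5258 with library totals and 200 and 6154 on log2(TPM + 1).

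Dnmt3b was at 1.27, 1.44, 2.10 and 1.57 CPM with Igfbp2 (23 to 44 counts), every library below the lowest vehicle library at 2.53 CPM. Its log2 fold change was -0.89 ± 0.19 (1.85-fold lower, adjusted p = 0.00587, edgeR), and it passed in every alternative that tested it other than the Y-linked covariate. The Dnmt3a to Dnmt3b ratio needs no library scaling but, being of TPM, rests on the estimated transcript lengths. It was 95.5, 96.5, 56.1 and 51.0 with Igfbp2, above all vehicle libraries (at most 25.6) and overlapping WT (84.0 to 128). The Dnmt3b lengths behind it were 4128, 3808, 3345 and 2489 bases in these treated libraries, on 23 to 44 counts, so its spread among them is uncertain. Dnmt3a per Dnmt1 was 0.960, 0.962, 0.802 and 1.16, above vehicle, where the highest was 0.797, and below WT, where the lowest was 2.31.

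Uhrf1 and Dnmt1 did not pass. Uhrf1 was at 142, 151, 169 and 115 CPM with Igfbp2, within and just below the vehicle range, with a log2 difference of -0.05 (95% interval -0.49 to 0.39). Dnmt1 was at 167, 199, 241 and 156 CPM, overlapping vehicle, with a log2 difference of 0.19 (95% interval -0.18 to 0.57) that turned negative on log2(TPM + 1), on log2(TPM + 0.1), by the study's test on TPM and with library totals. The interval for Uhrf1 does not reach the size of its difference between Ncf1-/- and WT. Uhrf1 per summed Mcm2 to Mcm7 was 20.3% ± 0.925, overlapping vehicle. None of the 9 maintenance partners passed edgeR's test, with 1 at an unadjusted p under 0.05, and DESeq2 called 0. Of the 14 S phase genes 1 passed, Tyms (-0.66 ± 0.11).

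Tet2 had the lowest values of the study with Igfbp2, at 43.5, 45.3, 47.2 and 48.8 CPM, all below the lowest vehicle library at 49.3 CPM. Its log2 difference was -0.21 ± 0.08 with an adjusted p of 0.0797 by edgeR, so it did not pass. It passed in 10 alternatives, with an adjusted p of 0.0459 without vehicle replicate 3, 0.0492 without WT replicate 12 and 0.0484 by DESeq2. With only the 2 groups compared it was 0.0211 (-0.26, edgeR), and 0.0342 when the stated pups were added as pairs (-0.26, replicate block). Another of the 10 was limma on log2(TPM + 1) (-0.73, adjusted p = 0.00417), where the median of all genes was -0.30. Tet2 made up 22.8%, 17.5%, 16.002% and 19.5% of the Tet sum, below every vehicle library, and Tet1 made up 30.1% ± 3.42, above every vehicle library. The Tet sum per Dnmt sum was 0.457 ± 0.0471, overlapping vehicle.

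**Figure D4:**
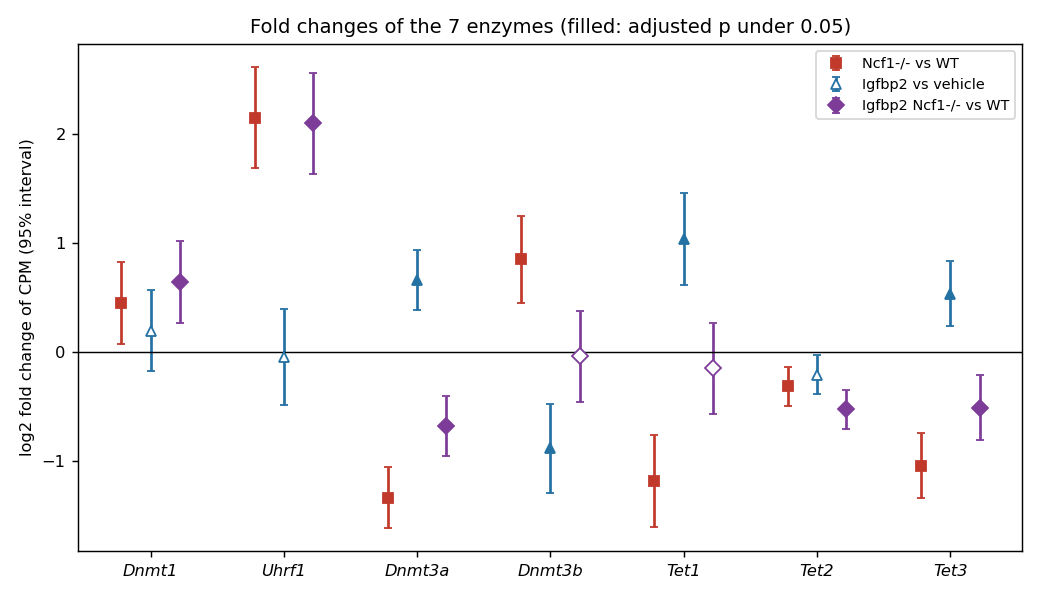
Log2 fold change of CPM with its 95% interval (y axis) for each of the 7 enzymes in the 3 comparisons, filled where the adjusted p of edgeR is under 0.05. Dnmt3a, Dnmt3b, Tet1 and Tet3 have opposite signs in the first pair of comparisons, which share the vehicle libraries, while Uhrf1 is at 2.15 for Ncf1-/- against WT and -0.05 for Igfbp2 against vehicle.

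Among the partners, few passed in this comparison. Zfp57 fell by -1.23 ± 0.16 (from 6.52 ± 0.784 to 2.78 ± 0.0943 CPM) and Nsd1 rose by 0.49 ± 0.14, while the other 5 tested de novo partners did not pass. Of the 15 oxidation and removal partners, 3 fell and 2 rose: Gadd45g (-0.92 ± 0.20), Ogt, the glycosyltransferase that binds Tet proteins (-0.71 ± 0.12, from 121 ± 6.59 to 74.1 ± 5.41 CPM), Mbd4 (-0.53 ± 0.13), Cxxc5 (0.67 ± 0.17) and Gadd45a (0.60 ± 0.19). Ogt is X-linked, and Xist was higher in the treated libraries, and the part of this in its fall was not tested. Of the readers, Zbtb4 (0.68 ± 0.16) and Zbtb38 (0.39 ± 0.11) rose, and of the methyl donor cycle Shmt2 rose (0.35 ± 0.09) and Mat2b fell (-0.21 ± 0.07). None of the 3 tested germline genes passed, with 1 at an unadjusted p under 0.05 and 0 called by DESeq2. Of the 4 tested mesenchymal and endothelial markers 3 rose, from a summed 3.29 to 4.06 CPM with vehicle to 7.09 to 9.44 CPM with Igfbp2, and their part was not tested.

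The third comparison, Igfbp2-treated Ncf1-/- against WT, asks how far treated cells remain from WT. It uses the treated and WT libraries of the other comparisons and is no separate evidence. Of the 7 genes 5 passed, where 62.4% of all tested genes passed: Uhrf1 and Dnmt1 were higher than in WT, as were 31.6% of tested genes, and Dnmt3a, Tet2 and Tet3 lower, as were 30.8%. The groups did not overlap for the same 5, against 54.3% of all tested genes. Uhrf1 differed by 2.10 ± 0.21 on the log2 scale (4.28-fold) and Dnmt1 by 0.64 ± 0.17 (1.56-fold, adjusted p = 0.0060, edgeR), which fell to 0.43 with an adjusted p of 0.0517 without Igfbp2 replicate 7 and did not pass on log2(TPM + 1) (0.21, adjusted p = 0.465). Dnmt3a differed by -0.68 ± 0.13, Tet3 by -0.51 ± 0.14 and Tet2 by -0.53 ± 0.08. With the Y-linked covariate, Tet3 (adjusted p = 0.0528, edgeR) and Dnmt1 (0.061) did not pass. By the study's test on TPM, Uhrf1 did not pass (adjusted p = 0.0652), nor did Dnmt1 (0.951). The treated libraries also differed from WT replicates 9 to 11 in Y-linked and Xist levels, and the part of this was not tested. Tet1 (-0.15, 95% interval -0.57 to 0.26) and Dnmt3b (-0.04, 95% interval -0.46 to 0.38) did not pass, and their intervals leave out a difference as large as the one between vehicle and WT. On log2(TPM + 1), however, Tet1 was lower than in WT by -0.70 (adjusted p = 0.0223, limma). The median of all genes was -0.25 in that setting, and Tet1 stood at -0.45 relative to it. The study's test on TPM did not call Tet1 (adjusted p = 0.124).

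Of the 9 maintenance partners 7 were higher than in WT and 1 lower, with a median of 1.40, led by Cdca7l (2.09 ± 0.17) and Pclaf (2.02 ± 0.27), and all 14 S phase genes were higher, with a median of 1.44. Of the 7 tested de novo partners 5 were lower (median -0.37), of the 15 oxidation and removal partners 5 were higher and 5 lower, of the 9 readers 1 was higher and 3 lower, and of the 10 methyl donor genes 7 were higher and 2 lower. Tex15 was 2.36 ± 0.24 higher on the log2 scale and Brdt differed by -0.92 ± 0.27.

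The mix of transcripts was followed through RSEM's length of a gene, the mean over its transcripts weighted by abundance, which does not depend on library scaling. All 7 genes have several transcripts in the files, from 3 for Dnmt1 to 18 for Dnmt3a. The length of Tet2 was 6938, 6932, 6945 and 6435 bases in WT, 6465, 6879, 6546 and 6764 bases with vehicle, and 7676, 7582, 7959 and 7523 bases with Igfbp2. Every treated library was longer than all 8 others. The difference in the mean was 1021 bases against vehicle and 872 bases against WT (746 bases without WT replicate 12). Both differences had an exact two-sided permutation p of 0.0286, the smallest that 4 against 4 libraries can give, and an adjusted p of 0.12 over the 21 tests, so that neither passed. TPM divides reads by this length.

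**Figure D5:**
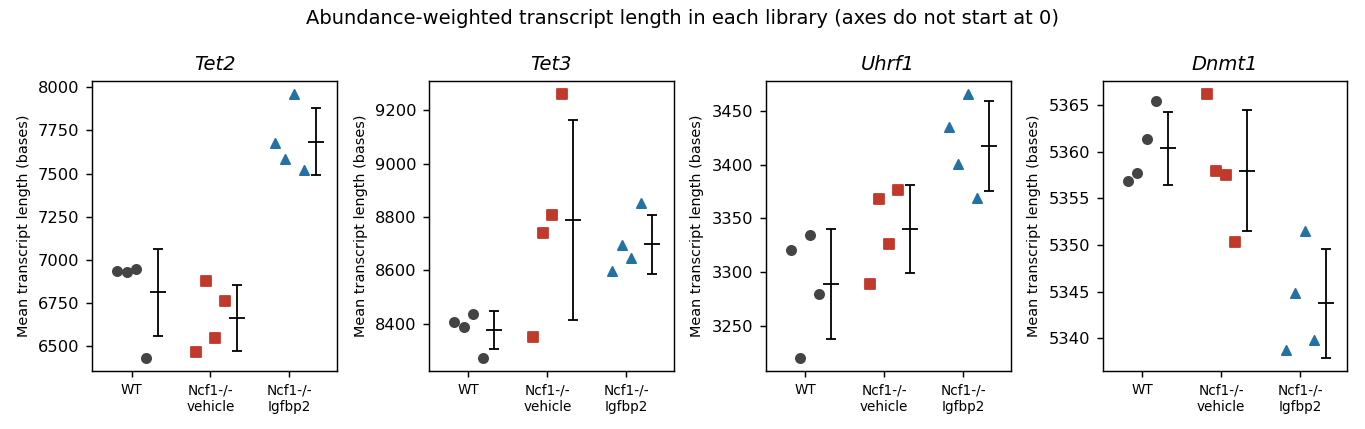
Abundance-weighted mean transcript length (bases, y axes not from 0) of Tet2, Tet3, Uhrf1 and Dnmt1 in every library of the 3 groups, with the mean ± SD (n = 4). For Tet2, the 4 Igfbp2-treated libraries lie at 7523 bases and above, and the 8 others at 6945 bases and below.

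Of the 21 length tests, 0 passed after adjustment and 5 had an exact permutation p under 0.05, each with groups that did not overlap. Beside those of Tet2, they were Dnmt1 (5344 ± 5.80 with Igfbp2, 5360 ± 3.93 bases in WT), Uhrf1 (3418 ± 42.0 and 3289 ± 51.2 bases) and Tet3 (8698 ± 111 and 8375 ± 71.5 bases), all between treated Ncf1-/- and WT. The Dnmt1 shift is small against its transcripts, which run from 5248 to 5870 bases in GENCODE M21. Between vehicle and WT, no gene of the 7 had non-overlapping lengths. For Dnmt3b, with 23 to 79 counts in a library, lengths spread from 2381 to 4128 bases and allow no statement.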

How the data were processed

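The submitters' processing notes name Bowtie2 and RSEM with the mouse build GRCm38. Versions and annotation release are not given in the sources used here. For each library the authors deposited RSEM gene results with expected counts, TPM, FPKM and transcript lengths (other unit, in bases). The FPKM were not used. A merged table deposited beside them holds a score (TPM times transcripts of the gene), of which only the gene symbols were used. Library totals were 18201622 to 34086554 expected counts.

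Expected counts, as deposited, were rounded to whole numbers, filtered with filterByExpr (15706 of 45792 genes, 99.9% of counts) and scaled by TMM factors. The 12 libraries were fitted in 1 model with edgeR 4.0.16 in R 4.3.3 (quasi-likelihood F test, two-sided, Benjamini-Hochberg over all genes tested, threshold 0.05, prior count of 2 for log2 CPM). Alternatives used DESeq2 1.42.0 and limma 3.58.1 on log2(TPM + 1) or log2(TPM + 0.1), library totals, other filters, only the compared groups, the study's own test on TPM (ANOVA with Tukey's test over the groups), a Y-linked covariate, a replicate block and leaving out each library. All were planned. Ratios between genes come from the TPM the authors deposited and carry no test. Transcript lengths were compared by exact two-sided permutation tests (scipy 1.17.1), of which the smallest possible p is 0.0286, adjusted over 21. The fits were also run on simulated data with known fold changes, in which few genes changed, equally up and down. Those data held no shift in the abundant RNAs, so they could not show how the fits handle the scaling differences described here.

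The members and gene lists were chosen with earlier results of these data known. Named genes are the 7 members, at most 4 called genes of each list and comparison by size of change, the 3 closest genes to each member among those averaging 5 CPM or more, and markers by which libraries stand apart. List genes named beyond that, and the Dnmt3a to Dnmt1 ratio, were chosen after their values were seen. Some list genes that the rule would name are not reported here. The study states that vehicle replicates 1 to 4 and Igfbp2 replicates 5 to 8 are cultures of the same pups. Deviations from the group means correlated at -0.0673 to 0.0328 in the 4 stated pairs and -0.248 to 0.257 in the 12 other combinations. The closest replicates, vehicle 2 and 3, still differed beyond sampling noise (chi-square per degree of freedom of 4.63). The other pairs within a group were at 13 to 143. Whether libraries came from separate pups cannot be read from these values. P-values for WT against Ncf1-/- measure the spread between cultures and take each library as 1 pup, as the study states.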

Additional observations from a re-analysis of the deposited data

Results flagged for a closer look

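Of 69 groups of 4 libraries examined, 4 had a library whose gap to the nearest other was large against the group's range, where chance alone gives about 1 in 20. The Tet2 transcript length in WT was 6435 bases in replicate 12, against 6932 bases in the nearest WT library. The Tet1 transcript length with Igfbp2 was 7039 bases in replicate 5, against 5937 bases in the nearest treated library. The Dnmt3a to Dnmt1 ratio with vehicle was 0.565 in replicate 4, against 0.769 in the nearest library. In that library RSEM's length of Dnmt3a was 5637 bases, against 4490 to 4703 bases in the other vehicle libraries, and by counts its ratio was 0.597, against 0.645 to 0.670. Dnmt1 was at 14.2% of summed Mcm2 to Mcm7 TPM in Igfbp2 replicate 5, against 17.4% in the nearest treated library.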

How the results depend on the processing

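Uhrf1, Dnmt3a, Tet1 and Tet3 kept their direction and passed in all 22 alternatives of Ncf1-/- against WT, and Dnmt3b in the 21 that tested it. The 7 members called there became 5 by limma on log2(TPM + 1), where Dnmt1 and Tet2 did not pass. All genes called went from 8978 to 6659 in that setting. For Igfbp2 against vehicle the 4 members called became 2 by limma on log2(TPM + 1) and 2 on log2(TPM + 0.1). In both settings these were Dnmt3b and Tet2, and Tet2 was not among the 4. The number called was 1 by the study's test on TPM, Dnmt3b, and 0 with the Y-linked covariate, which nearly coincides with treatment there. For Igfbp2-treated Ncf1-/- against WT the 5 became 3 by the study's test and 3 with the covariate. All genes called went from 9801 to 5592 by the study's test and to 7036 with the covariate. Leaving out 1 library gave 6 to 7, 3 to 5 and 4 to 5 members called in the order of the comparisons. The Dnmt1 difference between Igfbp2 and vehicle turned to -0.0736 with library totals, -0.27 on log2(TPM + 1), -0.28 on log2(TPM + 0.1) and -0.25 by the study's test. With the Y-linked covariate Uhrf1 turned to 0.20 for Igfbp2 against vehicle and Dnmt3b to 0.0735 for Igfbp2-treated Ncf1-/- against WT. Leaving out 1 library gave -0.18 to 0.0497 for that Uhrf1 difference and -0.27 to 0.0484 for that Dnmt3b difference. It also turned transcript length differences (bases) of Dnmt1 (-5.12 to 0.148) and Tet1 (-40.7 to 435) for Ncf1-/- against WT, of Tet3 (-237 to 66.5) for Igfbp2 against vehicle, and of Dnmt3a (-38.1 to 121) and Dnmt3b (-166 to 459) for Igfbp2-treated Ncf1-/- against WT. The cause was not tested.

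All genes called for Igfbp2 against vehicle numbered 3923, against 1514 at an adjusted p of 0.01, 5906 with library totals, 6354 and 6519 by limma with the larger and smaller pseudocount, 2149 by the study's test, 5 with the covariate, 2320 without vehicle replicate 1, 2294 without vehicle replicate 2 and 2550 without Igfbp2 replicate 6. For Ncf1-/- against WT 8978 became 4329, and for Igfbp2-treated Ncf1-/- against WT 9801 became 5592, by the study's test. The split of higher and lower genes moved for Igfbp2 against vehicle from 2238 and 1685 to 960 and 2245 on TPM rescaled without the 100 most abundant genes, 165 and 6354 on log2(TPM + 0.1), and 64 and 2085 by the study's test. For Ncf1-/- against WT it moved from 4545 and 4433 to 6024 and 3159 with library totals, and for Igfbp2-treated Ncf1-/- against WT from 4964 and 4837 to 1969 and 6890 on log2(TPM + 1). Library totals shifted the median of all genes to 0.19 for Ncf1-/- against WT. The fit with the stated pups as a replicate block used only the vehicle and Igfbp2 libraries. It changed the call of Tet2 (-0.26, adjusted p = 0.0342, edgeR) and of no other member. Those libraries without the block already called Tet2 (-0.26, adjusted p = 0.0211, edgeR), so the block itself changed no call of a member. All 351 values of the ratios between genes moved by less than the SD between replicates. Leaving out 1 of 4 libraries cannot move a mean by that much, so only the values from expected counts in place of TPM could have done otherwise. Depth limits Dnmt3b most, with 23 to 79 counts in a library.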
